A study of Mus musculus with 18 samples.

Results

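Expression of 7 genes that store, transport, oxidise, break down or respond to retinoids was examined in mouse liver. The members were Lrat, Rbp4, Aldh1a1, Dhrs3, Cyp26a1, Cyp26b1 and Rarb, listed by name with earlier results of these data known. Together they have 8 of the 45101 probe sets on the array, Lrat having 2 and every other gene 1, and each gene was read from its probe set of highest mean intensity. All 7 passed the filter on dim probe sets and were among 14691 genes tested. All 8 probe sets lay above their array's 40th percentile on all 18 arrays.

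Livers came from C57BL/6 mice of genotype AIM+/+ (wild type, WT) or AIM-/- (AIM-KO), lacking the macrophage protein AIM, which the gene Cd5l encodes. Mice received normal chow, a high-fat diet (HFD) for 12 weeks or an HFD for 20 weeks, giving 6 groups of 3 Affymetrix Mouse Genome 430 2.0 arrays: WT chow, AIM-KO chow, WT 12 weeks HFD, AIM-KO 12 weeks HFD, WT 20 weeks HFD and AIM-KO 20 weeks HFD. The arrays are labelled as biological replicates of whole liver, and p-values measure the spread between these samples. The knockout is not restricted to a cell type in the labels, no separate chow group is labelled for each length of HFD, and neither the age of the mice nor the make-up of the diet is given. Time on the diet therefore cannot be told apart from age.

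Vitamin A reaches the liver as retinyl ester. Hepatocytes release retinol bound to RBP4, while stellate cells store it after LRAT has esterified it again. Retinol is oxidised to retinaldehyde and then to retinoic acid, which activates the nuclear receptors RAR and RXR, and enzymes of the CYP26 family hydroxylate retinoic acid and so end its signal. Cyp26a1, Rarb, Dhrs3 and Lrat are themselves known to be induced by retinoic acid in various cells.

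Values are MAS5 intensities, the linear brightness of a probe set after each array was scaled to a 2% trimmed mean of 100. Differences are log2 changes of intensity plus 3.3, with the limma standard error (SE) from a fit over all 18 arrays, and a gene is called where its p, adjusted by Benjamini-Hochberg over all 14691 genes, is under 0.05. Array medians ran from 15 to 21.1, and Alb, the hepatocyte gene of serum albumin, lay between 6138.8 and 11103.8. Cd5l lay between 702.6 and 1926.8 on the 9 WT arrays and between 4 and 23.5 on the 9 AIM-KO arrays. Whether its probe set lies within the deleted part is not given. On 4 arrays, the 3 of AIM-KO 20 weeks HFD and replicate 2 of WT 20 weeks HFD, Xist, which is expressed from an inactive X chromosome, lay between 2921.6 and 3049.7, against 7.8 to 26.2 on the other 14. On these 4 arrays 3 genes of the Y chromosome (Eif2s3y, Kdm5d, Uty) were at 9.9 or lower, and on the rest at 71.8 or higher. The labels give no sex, so genotype at 20 weeks is largely confounded with this split. The 20-week calls of members and named pathway genes that change with Xist as a term are given that way too. Counts of marker and pathway lists at 20 weeks, and the call of Ppbp, are given only without that term. With it the genes called at 20 weeks in AIM-KO went from 1007 to 195, so those counts may not hold. In WT at 20 weeks the Xist term gives the same changes as leaving out replicate 2, the only WT array with high Xist. Replicate 2 also had the lowest ratio of the 3′ to the 5′ actin control probe set in its group, 2.54 against 3.64 and 4.22. In AIM-KO at 20 weeks this actin ratio ran from 2.35 to 2.61. The Xist split at 20 weeks therefore cannot be told apart from this ratio.

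Cyp26a1 was lower after HFD than on chow in both genotypes, and of the 7 members it alone was called in all 4 comparisons of an HFD group with its chow group. Lrat was called higher in 3 of these 4 comparisons on its brighter probe set, but in none on its dimmer one. Rarb was called higher at 20 weeks in WT, and Rbp4 lower at 12 weeks in AIM-KO. Dhrs3, Cyp26b1 and Aldh1a1 were called in no comparison.

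Of the 7 members, 1 was called at 12 weeks in WT, where 5.13% of all genes tested were called, and 3 at 12 weeks in AIM-KO, where 18% were. Averaged over the genotypes at 12 weeks, 2 members were called beside 22.5% of all genes. At 20 weeks 3 members were called in WT beside 14.5% of all genes, and 2 in AIM-KO beside 6.85%. The median change of the members lay between -0.11 and 0.20 in these 5 comparisons, and that of all genes between -0.01 and 0.04. With 7 members these shares are descriptions.

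**Figure D1:**
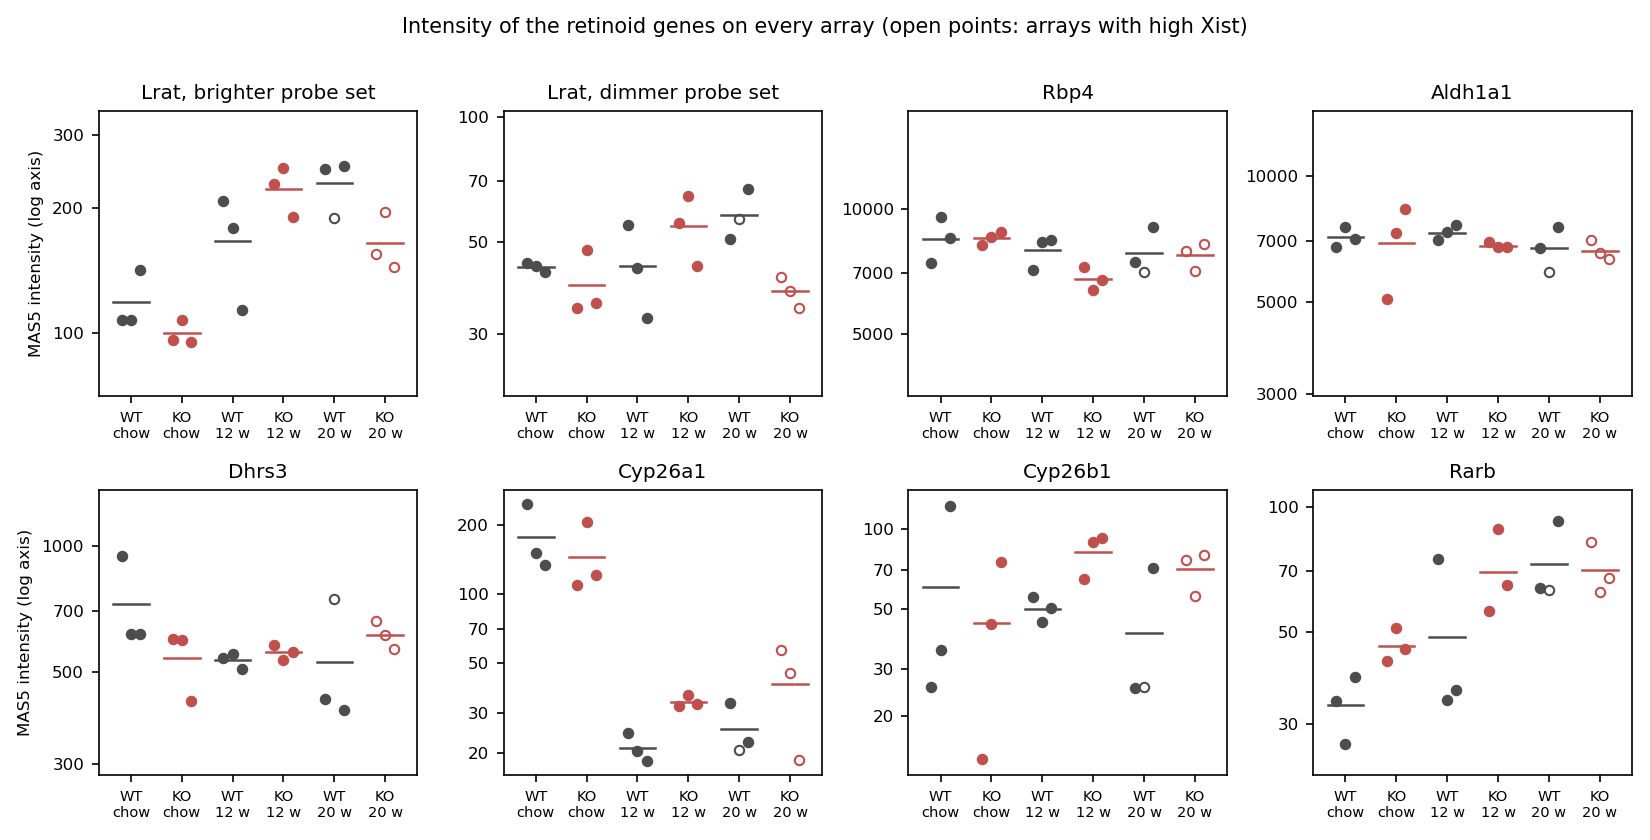
MAS5 intensity (log axis) of the 8 probe sets on each of the 18 arrays, by group (WT grey, KO red, 3 points a group, line at the mean; open points are the 4 arrays with high Xist). Cyp26a1 lies at 109 or above on the 6 chow arrays and at 56.8 or below on the 12 HFD arrays, while Aldh1a1 and Rbp4 vary by 1.65-fold and 1.5-fold between their lowest and highest arrays.

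Cyp26a1 and Cyp26b1 encode hydroxylases that clear retinoic acid, and of these Cyp26a1 is the one known to respond strongly to retinoic acid in liver. Cyp26a1 is on chromosome 19, and the window of its start site shown here, the 250 bases before the start at chr19:37697558-37697807 (plus strand, RefSeq, GRCm38.p6), holds a pair of half-sites of the kind that RAR and RXR bind as a direct repeat with a spacer of 5 bases. The window of Rarb, chr14:16575477-16575726 (minus strand), holds such a pair too. Both windows are shown because these were the only members with a match and because at 20 weeks in WT Rarb was called higher and Cyp26a1 lower. Rarb was called in no other comparison with all arrays, and this call was lost without replicate 3 of WT 20 weeks HFD. Capitals mark the half-sites, and each run is written 5′ to 3′ on the strand of the gene.
Cyp26a1: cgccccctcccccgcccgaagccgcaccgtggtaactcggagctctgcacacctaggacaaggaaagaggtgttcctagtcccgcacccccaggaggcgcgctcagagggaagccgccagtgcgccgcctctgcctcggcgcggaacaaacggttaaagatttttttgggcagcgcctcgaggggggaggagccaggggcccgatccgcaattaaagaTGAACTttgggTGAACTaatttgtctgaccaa
Rarb: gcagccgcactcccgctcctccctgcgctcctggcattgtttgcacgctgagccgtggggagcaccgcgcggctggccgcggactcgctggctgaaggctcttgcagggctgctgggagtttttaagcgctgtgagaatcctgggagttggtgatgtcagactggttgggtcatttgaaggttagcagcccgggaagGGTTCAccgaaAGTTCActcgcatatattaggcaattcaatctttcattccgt
The search used the consensus half-site AGGTCA, the variant AGTTCA, which the window of Cyp26a1 holds on its other strand, and the forms of each that begin with another purine, GGGTCA for the consensus and for the variant GGTTCA, on both strands, in the same orientation, with spacers of 1, 2 or 5 bases, in windows of 300 bases from 250 before to 50 after each start. All 7 members had a window, 11 in all. The repeat with a spacer of 5 was found in 32 of 32851 windows, or 0.0974%, and in 2 of the 11. The elements of Rarb and Cyp26a1 are among those from which this kind of repeat is known, so their match follows from the letters searched, and nothing is read from the share among the members. In Cyp26a1 it lies from 32 to 16 bases before the start and reads on the opposite strand, and in Rarb it lies from 53 to 37 bases before the start on the strand of the gene. Spacers of 1 and 2 bases were found in 0.222% and 0.268% of all windows and in none of the members. Of the 29 other genes with the repeat of spacer 5, 7 were tested. None of these was called at 12 weeks in WT or AIM-KO or at 20 weeks in WT, and 1, the platelet chemokine gene Ppbp, was called at 20 weeks in AIM-KO, at 0.95. A match of letters is a description of the window, not a site shown to be used in these livers.

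On chow, Cyp26a1 read 247.6, 150.8 and 134.2 in WT and 109, 206.4 and 121.3 in AIM-KO. After 12 weeks of HFD it read 24.5, 20.4 and 18.5 in WT and 32.3, 36.1 and 32.8 in AIM-KO. After 20 weeks it read 33.3, 20.6 and 22.5 in WT and 56.8, 45.2 and 18.7 in AIM-KO. All 12 HFD arrays were below all 6 chow arrays, and no HFD group was separate from every other HFD group, since AIM-KO at 20 weeks spanned 18.7 to 56.8. In WT the mean went from 177.5 ± 61.2 (SD, n = 3) to 21.1 ± 3.07 at 12 weeks, an intensity 8.4-fold lower, and to 25.5 ± 6.85 at 20 weeks. Cyp26a1 fell by 2.84 on the log2 scale at 12 weeks in WT (SE 0.32, adjusted p = 4.0e-05) and changed by -2.63 at 20 weeks (SE 0.32, adjusted p = 2.7e-05). In AIM-KO it fell by 1.95 at 12 weeks (SE 0.32, adjusted p = 3.6e-04), from a mean of 145.6 ± 53 to 33.7 ± 2.06, or 4.32-fold. The fall in AIM-KO at 20 weeks was 1.84 (SE 0.32, adjusted p = 0.0015). Leaving out any 1 array of the groups compared kept Cyp26a1 called in all 4 comparisons. With Xist as a term the change in AIM-KO at 20 weeks was -1.48 and no longer called (adjusted p = 0.24), a fit that estimates the Xist effect from replicate 2 of WT 20 weeks HFD alone.

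Between genotypes on the same diet, Cyp26a1 differed by -0.29 on chow, 0.61 at 12 weeks and 0.50 at 20 weeks (AIM-KO minus WT, adjusted p = 0.90, 0.64 and 0.53). At 12 weeks all 3 AIM-KO arrays, from 32.3 up, were above all 3 WT arrays, which reached 24.5. The fall was smaller in AIM-KO by 0.89 at 12 weeks (95% interval -0.06 to 1.84, adjusted p = 0.56) and by 0.79 at 20 weeks (95% interval -0.16 to 1.74, adjusted p = 0.58), so a difference between the genotypes was not shown, and the intervals reach well above 1 log2 unit. In bulk liver, fewer cells of a type and less RNA per cell cannot be told apart. The hepatocyte marker list, 11 genes tested, summed to between 75070 and 88855 in WT chow and 62508 to 78262 in WT at 12 weeks, with 1 of 11 called lower and a median change of -0.32. Of 13 pericentral hepatocyte markers 3 were called at 12 weeks in WT, 2 higher and 1 lower: the glutamine synthetase gene Glul changed by 0.99, Lect2 by 0.65 and Cyp1a2 by -1.52. Cyp1a2 kept its call on leaving out any 1 array, Glul in 4 of 6 such fits and Lect2 in 0. At 12 weeks in AIM-KO 6 of the 13 pericentral markers were called, 2 higher and 4 lower, with a median change of -0.28. Their sum there ran from 24254 to 25663, against 28016 to 34599 in AIM-KO chow. The fall was not particular to pericentral markers. In the same comparison 8 of 11 hepatocyte markers were called, all lower, with a median change of -0.5. Of 9 periportal hepatocyte markers 6 were called there, 1 higher and 5 lower, with a median change of -0.45. At 12 weeks in WT 3 of these 9 were called, 1 higher and 2 lower, with a median of -0.21. At 20 weeks 3 pericentral markers were called in WT (1 higher, 2 lower) and 4 in AIM-KO (3 and 1), with medians of -0.13 and 0.12. Of the periportal markers 5 were called in WT (2 higher, 3 lower) and 2 in AIM-KO (1 and 1), with medians of -0.1 and -0.07. Of all genes 5.13% and 18% were called at 12 weeks in WT and AIM-KO, and 14.5% and 6.85% at 20 weeks. No marker of any list was at 0 on any array, and the part of these shifts in the result for Cyp26a1 was not tested.

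**Figure D2:**
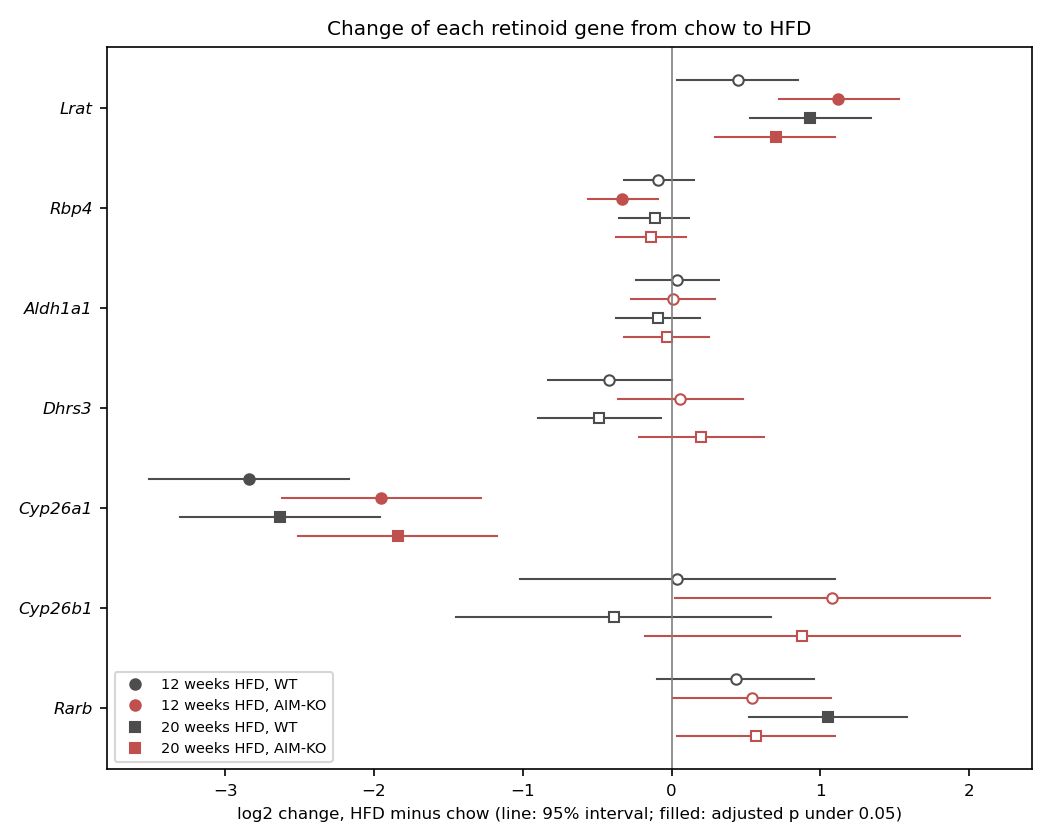
Log2 change from chow to HFD for each member (points; WT grey, AIM-KO red; circles 12 weeks, squares 20 weeks), with the 95% interval of limma's fit as a line; filled points have an adjusted p under 0.05. Cyp26a1 lies between -2.84 and -1.84 in all 4 comparisons, Lrat between 0.45 and 1.12, and the intervals of Cyp26b1 are over 2 log2 units wide.

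Cyp26b1, the relative of Cyp26a1 better known from skin, brain and the embryo, was called in no comparison with all arrays. It read 25.7, 35.3 and 121.1 in WT chow and 13.8, 44 and 74.8 in AIM-KO chow. At 12 weeks it read 55.3, 44.6 and 50.3 in WT and 64.7, 88.9 and 92.1 in AIM-KO, and at 20 weeks 25.4, 25.5 and 71.3 in WT and 76.5, 56.2 and 79.4 in AIM-KO. The lowest and the highest of all 18 values were both on chow, with a coefficient of variation of 86.5% in WT and 69% in AIM-KO. Its change at 12 weeks in AIM-KO was 1.08 (95% interval 0.02 to 2.14, adjusted p = 0.16) and in WT 0.04 (95% interval -1.02 to 1.10, adjusted p = 0.98). The interval in WT thus takes in a change of 1 log2 unit in either direction. Without replicate 3 of AIM-KO chow, at 74.8, the change in AIM-KO was 1.57 and called (adjusted p = 0.048).

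Rarb encodes the retinoic acid receptor RAR-beta. It read 34.1, 26.9 and 39 in WT chow, 42.5, 51.1 and 45.4 in AIM-KO chow, 74.9, 34.2 and 36.3 in WT at 12 weeks, and 56.1, 88.2 and 64.9 in AIM-KO at 12 weeks. At 20 weeks it read 63.8, 62.9 and 92.2 in WT and 82.2, 62.3 and 67.3 in AIM-KO. The WT chow arrays were below every array of the other groups except replicates 2 and 3 of WT at 12 weeks. At 20 weeks in WT Rarb rose by 1.05 (SE 0.25, adjusted p = 0.0085), from 33.3 ± 6.09 to 73 ± 16.7, with every 20-week array above every chow array. Without replicate 3 of WT 20 weeks HFD the change was 0.88 and just missed the threshold (adjusted p = 0.051). Its change was 0.57 at 20 weeks in AIM-KO (adjusted p = 0.21), 0.54 at 12 weeks in AIM-KO (adjusted p = 0.16) and 0.43 at 12 weeks in WT (adjusted p = 0.39). The average over genotypes at 12 weeks was 0.48 (adjusted p = 0.060). It passed at 0.58 without replicate 2 of WT 12 weeks HFD and at 0.56 without replicate 3 (adjusted p = 0.029 and 0.041). At 20 weeks in WT, the only comparison in which Rarb was called with all arrays, Cyp26a1 was called lower. Whether the repeat in their windows has a part in either change was not tested.

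Lrat, the acyltransferase that makes retinyl esters, is on chromosome 3, 4.45 Mb from Cd5l. On its brighter probe set it read 107.5, 107.3 and 141.7 in WT chow and 96.2, 107.8 and 95.4 in AIM-KO chow. At 12 weeks it read 208.1, 178.6 and 113.4 in WT and 228.5, 248.9 and 189.7 in AIM-KO. At 20 weeks it read 248.3, 189.5 and 252.5 in WT and 154.7, 195.6 and 144.3 in AIM-KO. Apart from replicate 3 of WT at 12 weeks, every HFD array was above all 6 chow arrays. Lrat rose by 1.12 at 12 weeks in AIM-KO (SE 0.19, adjusted p = 5.5e-04), from 99.8 ± 6.94 to 222.4 ± 30.1, and by 0.93 at 20 weeks in WT (SE 0.19, adjusted p = 0.0032), from 118.8 ± 19.8 to 230.1 ± 35.2. The average over genotypes at 12 weeks was 0.78 (SE 0.14, adjusted p = 4.2e-04). In WT at 12 weeks the change was 0.45 (adjusted p = 0.21), and without replicate 3 of WT 12 weeks HFD it was 0.70 and called (adjusted p = 0.033). The call at 20 weeks in AIM-KO, a rise of 0.70 (SE 0.19, adjusted p = 0.037), was lost when any of 5 of the 6 arrays was left out, at 0.57 to 0.75, and with Xist as a term, at 1.09 (adjusted p = 0.13). It was also lost without the variance trend and with the probe sets averaged, at 0.33 (limma, adjusted p = 0.33).

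The dimmer probe set of Lrat showed smaller rises at 12 weeks in AIM-KO and at 20 weeks in WT, neither called, and little change in the other comparisons. It read 44.5, 43.7 and 42.3 in WT chow, 34.6, 47.7 and 35.7 in AIM-KO chow, 54.9, 43.2 and 32.8 in WT at 12 weeks, and 55.4, 64.5 and 43.7 in AIM-KO at 12 weeks. At 20 weeks it read 50.8, 56.6 and 66.9 in WT and 41.2, 38.2 and 34.6 in AIM-KO. Its changes were -0.02 and 0.44 at 12 weeks in WT and AIM-KO (adjusted p = 0.97 and 0.15) and 0.38 and -0.04 at 20 weeks (adjusted p = 0.22 and 0.95). Both probe sets had replicate 3 of WT 12 weeks HFD lowest in its group and AIM-KO below WT at 20 weeks, but the call of Lrat rests on the brighter one. Which of them reads the mature transcript was not tested.

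Lrat in liver is best known from stellate cells, and some stellate markers were called higher after HFD too. The sum of 14 quiescent stellate cell markers ran from 3678 to 4533 on chow over both genotypes, from 5084 to 5881 in WT and 5608 to 6355 in AIM-KO at 12 weeks, and from 6965 to 8980 in WT and 5421 to 6035 in AIM-KO at 20 weeks. Of these 14 markers, 2 were called at 12 weeks in WT, 4 in AIM-KO, 5 at 20 weeks in WT and 3 in AIM-KO, all higher, beside 5.13%, 18%, 14.5% and 6.85% of all genes called in either direction. Their median changes were 0.11, 0.32, 0.52 and 0.38. Averaged over genotypes at 12 weeks 4 were called higher and 1 lower. The collectin gene Colec11 rose by 0.91 and 1.22 at 12 weeks in AIM-KO and at 20 weeks in WT and Pdgfrb, the PDGF receptor of stellate cells, by 1.42 and 1.63. The sum of 10 activated stellate cell markers, mostly collagens and contractile proteins, ran from 367 to 538 on chow, from 1074 to 1982 at 12 weeks and from 890 to 2225 at 20 weeks, and 6 and 8 of 10 were called higher at 12 weeks in WT and AIM-KO and 7 and 6 at 20 weeks. Their part in the result for Lrat was not tested. Kupffer cell markers were called higher for 5 of 10 at 12 weeks in AIM-KO and at 20 weeks in WT, and sinusoidal endothelial markers for 3 and 2 of 12. Of all genes 18% and 14.5% were called there. At 12 weeks in WT and at 20 weeks in AIM-KO 1 of 10 and 1 of 12 were called higher, beside 5.13% and 6.85% of all genes.

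**Figure D3:**
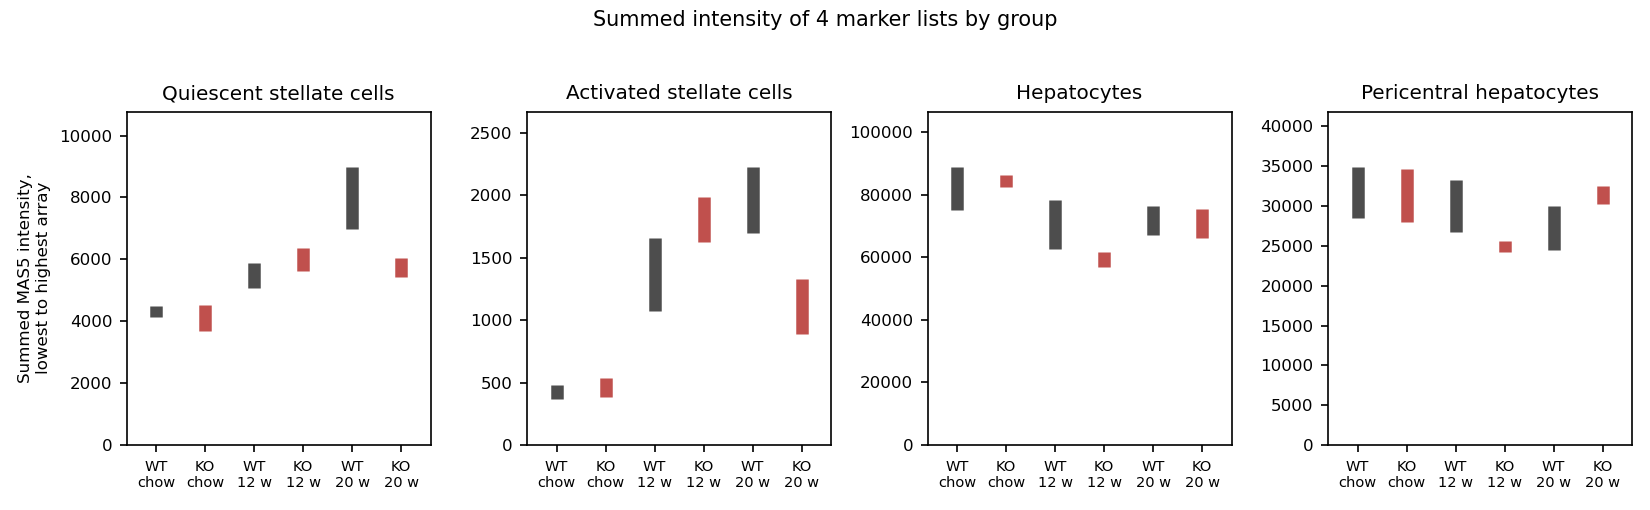
Summed MAS5 intensity of the markers of quiescent stellate cells, activated stellate cells, hepatocytes and pericentral hepatocytes (each bar spans the lowest to the highest of 3 arrays; WT grey, AIM-KO red; axes start at 0). Both stellate sums are above chow in all 4 HFD groups, and in AIM-KO the hepatocyte sum lies between 56923 and 61597 at 12 weeks against 82523 to 86180 on chow.

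For Lrat the estimated difference between genotypes changed sign with the diet, but it was called on none of the diets. In limma's fit AIM-KO minus WT was -0.23 on chow (adjusted p = 0.85) and 0.44 at 12 weeks (unadjusted p = 0.035, adjusted p = 0.54). At 20 weeks it was -0.47 (unadjusted p = 0.025, adjusted p = 0.28). Under the alternatives, the Xist term among them, the 20-week difference ran from -0.57 to -0.21 and was not called. The arrays of the genotypes did not overlap at 12 weeks except through replicate 1 of WT, at 208.1, and at 20 weeks except through replicate 2 of each, at 189.5 and 195.6. The genotype effect changed by -0.92 from 12 to 20 weeks (95% interval -1.49 to -0.34, adjusted p = 0.11), a comparison added after the data were seen, in which 0 members and 1.42% of all genes were called and 1 member had an unadjusted p under 0.05. Without replicate 1 of WT 12 weeks HFD it was -1.10 and without replicate 2 of WT 20 weeks HFD -1.05, and it was then called (adjusted p = 0.039 and 0.038). Under the other alternatives, the Xist term among them, this change of Lrat ran from -0.93 to -0.65 and was not called. The quiescent stellate marker Colec11 and the collagen Col3a1 were called in the same comparison, at -0.82 and -1.59. Each was the only one called in its list, 1 of 14 quiescent and 1 of 10 activated markers. Kupffer cell markers were called lower for 2 of 10, sinusoidal endothelial markers lower for 1 of 12 and pericentral hepatocyte markers higher for 2 of 13. Colec11 and Col3a1 were each called in 5 of 12 fits that left out 1 array and neither with Xist as a term (-0.70 and -1.27). Neither was called with the actin ratio as a term, with all probe sets of a gene averaged or without the variance trend. The 3 AIM-KO arrays at 20 weeks are among the 4 with high Xist.

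Rbp4 encodes the plasma carrier of retinol, which hepatocytes secrete. It read 7399.1, 9539.2 and 8481.6 in WT chow, 8193.9, 8548.8 and 8786.6 in AIM-KO chow, 7133.7, 8306.7 and 8428.8 in WT at 12 weeks, and 7258.2, 6375.2 and 6731.2 in AIM-KO at 12 weeks. At 20 weeks it read 7447.8, 7055 and 9020.4 in WT and 7906.1, 7083.2 and 8243.8 in AIM-KO. The 3 AIM-KO arrays at 12 weeks were below all 6 chow arrays, and all other pairs of groups overlapped. Rbp4 fell by 0.33 at 12 weeks in AIM-KO (SE 0.11, adjusted p = 0.049), from 8510 ± 298 to 6788 ± 444. The call was lost on leaving out any 1 of the 6 arrays (changes of -0.38 to -0.28) and after quantile normalization, where the change was -0.04 (adjusted p = 0.71). It was also lost with a pseudocount 4 times smaller, without the dim filter, with all probe sets of a gene averaged and without the variance trend. Ttr, the transthyretin that binds RBP4 in plasma, fell by 0.36 in the same comparison (SE 0.11, adjusted p = 0.024; called in 2 of 6 fits that left out 1 array). Quantile normalization took Ttr to -0.05 (adjusted p = 0.63) as it did Rbp4, and its call was also lost without the dim filter and without the variance trend. In the same comparison 8 of 11 hepatocyte markers were called lower, with a median of -0.50 over the 11. Their part in the result for Rbp4 was not tested. In the other 3 comparisons Rbp4 changed by -0.14 to -0.09, with adjusted p from 0.55 to 0.74.

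Dhrs3 reduces retinaldehyde back to retinol and so holds down retinoic acid. It read 950.3, 615.1 and 614.2 in WT chow, 600.2, 595.4 and 423.9 in AIM-KO chow, 537.6, 550.5 and 507.3 in WT at 12 weeks, and 578.6, 532.4 and 557.3 in AIM-KO at 12 weeks. At 20 weeks it read 430, 746.2 and 405.2 in WT and 660.2, 613.5 and 566.4 in AIM-KO. All 3 WT arrays at 12 weeks were below all 3 WT chow arrays, and at 20 weeks 2 of 3 were, the exception being replicate 2, the WT array with high Xist. In WT the changes were -0.42 and -0.49 at 12 and 20 weeks (adjusted p = 0.26 and 0.11), and in AIM-KO 0.06 and 0.20 (adjusted p = 0.89 and 0.65). Without replicate 2 of WT 20 weeks HFD, or with Xist as a term, Dhrs3 was called lower at 20 weeks in WT, at -0.76 (adjusted p = 0.0048). Without that array the 20-week change was 0.96 higher in AIM-KO than in WT (adjusted p = 0.037), against 0.68 with all arrays (95% interval 0.09 to 1.27, adjusted p = 0.41) and 0.13 with Xist as a term.

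Aldh1a1, which oxidises retinaldehyde to retinoic acid, was called in no comparison and varied little. Its arrays ran from 6760.4 to 7574.2 in WT chow, 5082.8 to 8370.7 in AIM-KO chow, 7031 to 7626.2 in WT at 12 weeks and 6750.3 to 6945.5 in AIM-KO at 12 weeks. At 20 weeks they ran from 5898.1 to 7570 in WT and from 6318.8 to 7034.4 in AIM-KO. The lowest and the highest of all 18 values were both in AIM-KO chow. Its changes on HFD lay between -0.09 and 0.04 with an SE of 0.13, and the 4 intervals reached from -0.37 to 0.32. A mouse paralog, Aldh1a7, is closely related in sequence, so the probes may read both. Aldh1a7 changed by -0.06 to 0.19 in the 4 comparisons, with no call.

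No member was called between genotypes. On chow 0 of 7 were called by limma beside 0.0272% of all genes, and 0 had an unadjusted p under 0.05. At 12 weeks 0 were called beside 0.0749% of all genes, and Lrat and Rarb had an unadjusted p under 0.05. At 20 weeks 0 were called beside 0.157%, with Lrat alone under 0.05 unadjusted. Averaged over chow and 12 weeks 0 were called beside 0.0545%, and Rarb had an unadjusted p of 0.011 at 0.50 higher in AIM-KO (SE 0.18, adjusted p = 0.56). The change with diet differed between genotypes for 0 members at 12 weeks, beside 0.00681% of all genes, and for 0 members at 20 weeks, beside 0% of all genes. Lrat at 12 weeks and Dhrs3 at 20 weeks had an unadjusted p under 0.05 there. The intervals of these comparisons differ between members. On chow that of Rbp4 ran from -0.22 to 0.25, and that of Cyp26b1 from -1.44 to 0.68.

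Of 53 other genes of the retinoid pathway, 42 were tested, in 3 lists. Among 20 genes of synthesis and oxidation, 4 were called at 12 weeks in WT (3 higher, 1 lower), 9 in AIM-KO (4 and 5), and at 20 weeks 7 in WT (4 and 3) and 5 in AIM-KO (3 and 2). Of all genes 5.13%, 18%, 14.5% and 6.85% were called in these comparisons, in the same order. The median change of the list lay between -0.03 and 0.03. Rdh16, a retinol dehydrogenase of liver, rose by 0.91 and 1.13 at 12 weeks in WT and AIM-KO (adjusted p = 0.0028 and 1.3e-04) and by 0.95 and 1.38 at 20 weeks (adjusted p = 7.0e-04 and 4.1e-05). Its means were 433 ± 62 in WT chow, 388 ± 115 in AIM-KO chow, and from 815 to 991 in the 4 HFD groups, whose arrays were all above the chow arrays. Rdh9, of the same gene family, rose by 0.76 and 0.73 at 12 weeks in WT and AIM-KO and by 0.82 at 20 weeks in AIM-KO, the last not called with Xist as a term (0.86, adjusted p = 0.16). Its probe set is of a kind that can read several related transcripts, so the signal of these family members is uncertain.

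Adh4, an alcohol dehydrogenase that oxidises retinol, moved the other way in all 4 comparisons. It changed by -0.65 and -0.77 at 12 weeks in WT and AIM-KO (adjusted p = 0.045 and 0.0058) and by -1.12 and -0.81 at 20 weeks (adjusted p = 4.0e-04 and 0.010). The calls at 12 weeks in AIM-KO and at 20 weeks in WT held on leaving out any 1 array, that at 12 weeks in WT in none of 6 such fits (-0.72 to -0.55) and that at 20 weeks in AIM-KO in 3 of 6. With Xist as a term the change at 20 weeks in AIM-KO was -0.10 (adjusted p = 0.91). The WT mean went from 2260 ± 284 on chow to 1430 ± 75.6 and 1060 ± 274. Cyp2c39, a cytochrome P450 that hydroxylates retinoic acid as the CYP26 enzymes do, was called in the opposite direction to Cyp26a1. Its mean was 21.4 ± 8.52 in WT chow and 25.7 ± 13.1 in AIM-KO chow, and it rose by 1.21 at 12 weeks in AIM-KO, by 1.36 at 20 weeks in WT and by 1.92 at 20 weeks in AIM-KO (adjusted p = 0.021, 0.013 and 0.0022). At 12 weeks in WT its change was 1.17 (adjusted p = 0.058). It belongs to a family of near-identical genes, and its probes may read some of these. Without any of 4 of the 6 arrays Cyp2c39 lost its call at 12 weeks in AIM-KO (0.86 to 1.24), and at 20 weeks it lost it in WT without replicate 3 of WT chow (1.19) or replicate 2 of WT 20 weeks HFD (1.07) and with Xist as a term (1.07, adjusted p = 0.055), and in AIM-KO with Xist as a term (1.06, adjusted p = 0.44). Dhrs4 rose by 0.70 at 12 weeks in WT. Rdh16 kept its 4 calls under every alternative run.

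**Figure D4:**
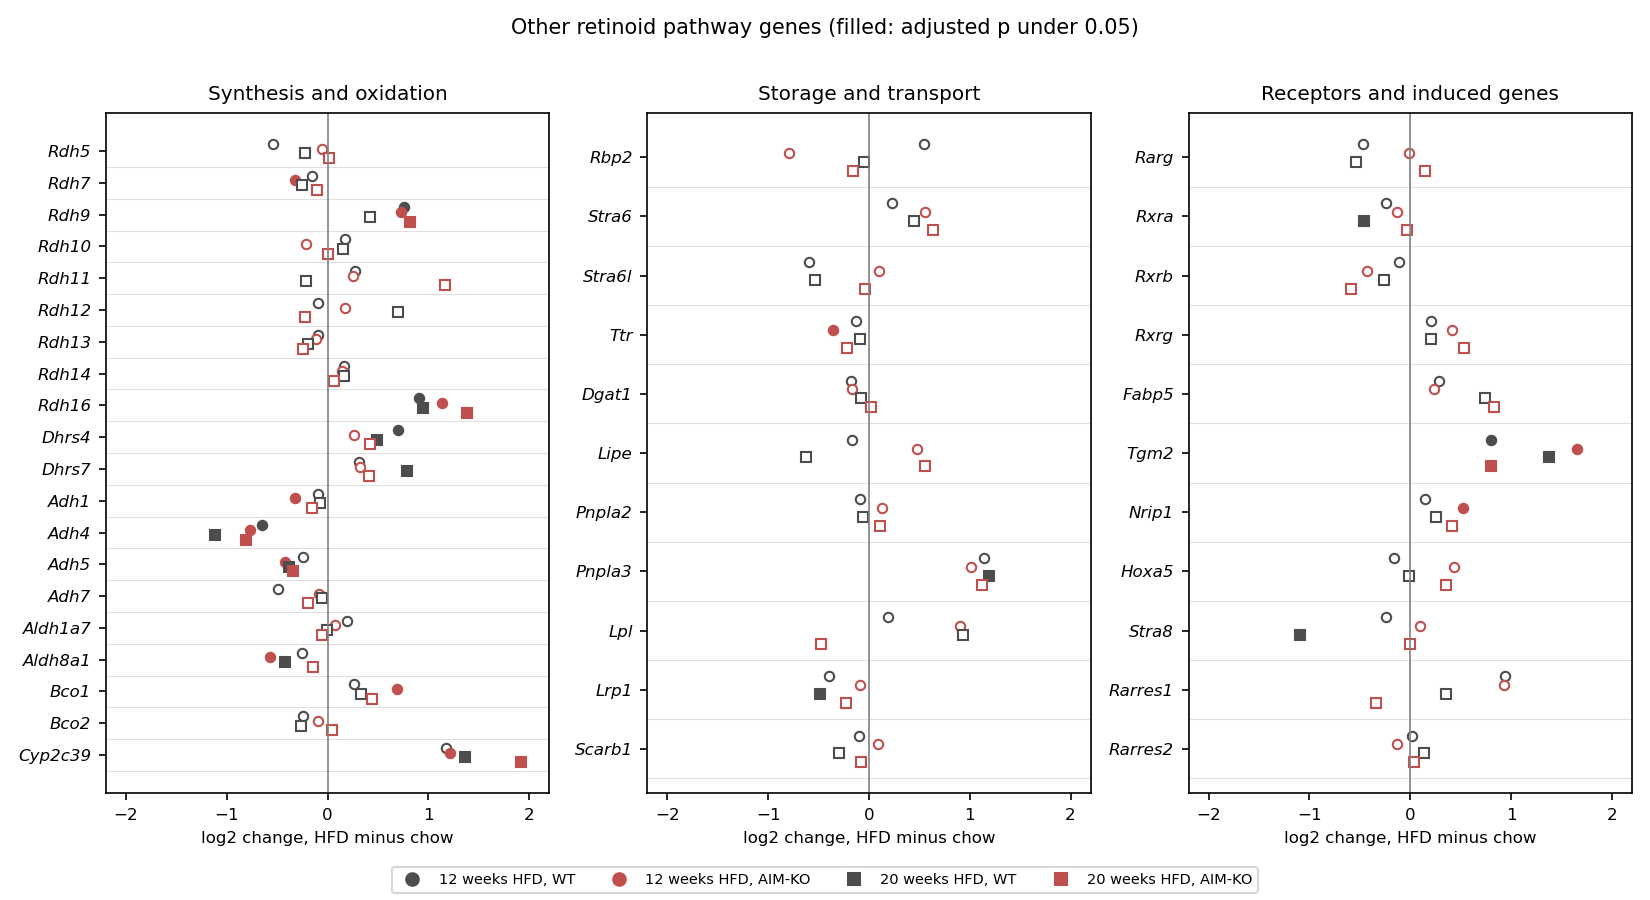
Log2 change from chow to HFD of the 42 other retinoid pathway genes tested, in 3 lists (WT grey, AIM-KO red; circles 12 weeks, squares 20 weeks; filled points have an adjusted p under 0.05). Rdh16 and Tgm2 are higher and Adh4 lower in all 4 comparisons, while Dgat1 lies near 0.

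Among 11 other genes of storage and transport, 0 were called at 12 weeks in WT and 1 in AIM-KO (Ttr), and at 20 weeks 2 in WT and 0 in AIM-KO. Pnpla3, a lipase that also acts on retinyl esters in stellate cells, rose by 1.19 at 20 weeks in WT (SE 0.35, adjusted p = 0.030), from 30.1 ± 2.47 to 78.8 ± 34.5, and by 1.07 averaged over genotypes at 12 weeks (adjusted p = 0.0043). Lrp1, a receptor for lipoprotein remnants that carry retinyl esters, fell by 0.49 at 20 weeks in WT (adjusted p = 0.046). Leaving out 1 array at a time, Pnpla3 at 20 weeks kept its call in 1 of 6 fits (0.95 to 1.61) and Lrp1 in 2 of 6 (-0.56 to -0.42). Among 11 receptors and retinoid-induced genes, 1 was called at 12 weeks in WT, 2 in AIM-KO, 3 at 20 weeks in WT and 1 in AIM-KO. For both lists of 11 the shares of all genes called were 5.13%, 18%, 14.5% and 6.85%, in that order. With so few genes these counts are descriptions.

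Tgm2, a transglutaminase induced by retinoic acid in many cells, rose in all 4 comparisons: by 0.80 and 1.65 at 12 weeks in WT and AIM-KO (adjusted p = 0.014 and 1.0e-05) and by 1.38 and 0.80 at 20 weeks (adjusted p = 7.0e-05 and 0.012). Its means were 925 ± 23.4 and 935 ± 182 on chow, 1660 ± 486 and 2910 ± 324 at 12 weeks, and 2430 ± 434 and 1630 ± 289 at 20 weeks, in WT and AIM-KO. Its probe set too can read related transcripts. Its genotype effect changed by -1.42 from 12 to 20 weeks (adjusted p = 0.014), beside that of Lrat, and the lipoprotein lipase gene Lpl changed by -2.13 and Aldh8a1 by 0.59 in the same added comparison (adjusted p = 0.026 and 0.039). With Xist as a term none of these 3 was called, at -1.14, -1.49 and 0.36, and on leaving out 1 array the calls held in 7, 5 and 3 of 12 fits. Lpl and Aldh8a1 also lost their calls with the actin ratio as a term, and all 3 genes lost theirs without the variance trend. Nrip1 rose by 0.52 at 12 weeks in AIM-KO, and Rxra and Stra8 fell by 0.46 and 1.09 at 20 weeks in WT (both adjusted p = 0.046), Stra8 being dim, with a mean of 19.5 in WT chow. Rarres1 was called when averaged over genotypes at 12 weeks, at 0.94 (adjusted p = 0.033). With all probe sets of a gene averaged Rxra changed by -0.08 (adjusted p = 0.70), and Stra8 changed by -0.53 with the actin ratio as a term (adjusted p = 0.34) and by -0.64 with a pseudocount 4 times larger (adjusted p = 0.055). Leaving out 1 array at a time, these calls held in 1 of 6 fits for Nrip1, 2 of 6 for Rxra, 1 of 6 for Stra8 and 5 of 12 for Rarres1. Tgm2 lost its call at 12 weeks in WT without replicate 1 of WT 12 weeks HFD (0.58, adjusted p = 0.099), and at 20 weeks in AIM-KO without replicate 3 of AIM-KO chow (0.65) or replicate 1 of AIM-KO 20 weeks HFD (0.67) and with Xist as a term (1.22, adjusted p = 0.068). Averaging its probe sets ended both calls, at 0.49 and 0.60 (adjusted p = 0.15 and 0.059). No gene of the 3 lists was called in the 4 genotype comparisons or in the difference of the diet effect at 12 or 20 weeks.

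The genes whose log2 intensity was most like that of each member over the 18 arrays were listed by Pearson's r, as a description, since the arrays share the diets and the scaling. For Cyp26a1 they were Ethe1 (0.91), Klf12 (0.90) and Fam135a (0.90), and for Lrat Rab8b (0.95), Nfe2l1 (0.93) and Ifi27l2a (0.93). For Rbp4 they were Adh1 (0.97), Apoe (0.97) and Apoc1 (0.96), all of them abundant liver transcripts. For Rarb they were Nrarp (0.86), Ifit1 (0.85) and Slpi (0.85), and for Dhrs3 Cgn (0.90), Pdzd11 (0.88) and Nfatc3 (0.84). Cyp26b1 had Cdh15 (0.86), Rbm14 (0.80) and Brs3 (0.79), and Aldh1a1 had Noa1 (0.85), Slitrk2 (0.85) and Gm20611 (0.84).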

How the data were processed

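Whole-liver total RNA from 18 liver samples, 3 in each of 6 groups, was measured on Affymetrix arrays. The deposited values are linear intensities made by the authors with MAS5, per the submitters' processing notes, and no version was found for it. Their 2% trimmed mean was 100 on each array. Of 45101 probe sets, 34945 had 1 gene symbol in the platform annotation, 932 several and 9160 none, and 34741 symbols were updated through Entrez identifiers. A probe set was kept if at least 3 arrays had it above their 40th percentile (9.5 to 14.2), and each gene was read from its probe set of highest mean log2 intensity. Log2 of intensity plus 3.3 (the 20th percentile of all values) was fitted with limma 3.58.1 in R 4.3.3 (6 group means, eBayes with trend, 18.2 degrees of freedom), with Benjamini-Hochberg adjustment. The fit was tested on simulated data. The median SE of a comparison of 3 against 3 arrays was 0.22, and the number of arrays limits the precision.

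The members and gene lists were chosen with earlier results of these data known. Named genes were the members, from each pathway list up to 3 called genes of largest change per comparison, and the 3 genes most correlated with each member. Marker genes beside a result, Aldh1a7, Dgat1 and Ppbp were named after their values were seen. Of the 53 pathway genes 11 were not tested, being dim or without a probe set of their own. Promoter windows are from RefSeq. Alternatives covered pseudocount, filter, normalization, probe set, variance trend, groups fitted, an actin 3′/5′ ratio term, an Xist term, a replicate block and leaving out each array.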

Additional observations from a re-analysis of the deposited data

Results flagged for a closer look

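Lrat was picked out because its genotype effect turned between the diets. AIM-KO minus WT changed by -0.92 from 12 to 20 weeks HFD (SE 0.27, unadjusted p = 0.0036, adjusted p = 0.11 by limma), and it was 0.68 higher at 12 weeks than on chow (SE 0.27, adjusted p = 0.45). Dhrs3 was picked out in the same way: AIM-KO minus WT was 0.48 higher at 12 weeks than on chow (SE 0.28, adjusted p = 0.63) and 0.68 higher at 20 weeks than on chow (SE 0.28, adjusted p = 0.41). In each case the effect had opposite signs under the 2 diets compared, and no difference passed the adjusted test.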

How the results depend on the processing

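Cyp26a1 kept its direction and its call in all 4 diet comparisons under every alternative run but the Xist term in AIM-KO at 20 weeks. Averaged over genotypes at 12 weeks, 4 members in place of 2 were called with the dim filter at the 60th percentile. At 20 weeks in AIM-KO, 1 in place of 2 was called after averaging all probe sets of a gene and 1 without the variance trend, and 0 with the Xist term. Leaving out 1 array gave 1 to 2 members there, 1 to 2 at 12 weeks in WT (2 without replicate 3 of WT 12 weeks HFD), 2 to 3 at 12 weeks in AIM-KO (3 with all arrays, and 2 to 3 under the other alternatives), 2 to 4 at 20 weeks in WT (3 with all arrays, 4 with the Xist term), and 0 to 1 where the 20-week diet effects of the genotypes were compared and in the added comparison. Some values that were not called changed sign: Rbp4 at 20 weeks in AIM-KO from -0.14 to 0.03 (quantile normalization) and 0.08 (Xist term), Rbp4 at 12 weeks in WT within -0.18 to 0.00 on leaving out 1 array, and Lrat in the difference of the 20-week diet effect from -0.24 to 0.03 (Xist term). The dimmer Lrat probe set, an alternative added after seeing the data, gave -0.02 at 12 weeks in WT and -0.04 at 20 weeks in AIM-KO. The cause was not tested. Of the values for single genes and of the added comparison under an alternative, 1243 kept direction and side of the threshold, 200 lost the call and 13 gained it.

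The labels do not say that replicate numbers pair the arrays, and the arrays did not meet the rule for pairing, a correlation over 0.1 for every pair: deviations of same-numbered arrays correlated from -0.09 to 0.23, and 9 of 18 arrays correlated best with one of their own number. The fit with a replicate block called as many members as that without it in each comparison (1, 3, 3 and 2 in the 4 diet comparisons), and 63 in place of 23 genes between genotypes at 20 weeks and 17 in place of 11 at 12 weeks. Counts over all genes moved more than the members. On leaving out 1 array they ran from 334 to 742 at 12 weeks in WT (753 with all arrays), from 1696 to 2340 in AIM-KO (2645), from 1397 to 2458 at 20 weeks in WT (2123) and from 538 to 1002 in AIM-KO (1007), and the last was 195 with the Xist term. Between genotypes they ran from 3 to 104 at 12 weeks (11 with all arrays, 104 without replicate 1 of WT 12 weeks HFD) and from 2 to 946 at 20 weeks (23), and in the added comparison from 22 to 742 (208), both highest without replicate 2 of WT 20 weeks HFD, the WT array with high Xist. That array also had the lowest actin ratio in its group. With the actin ratio as a term 2 genes were called between genotypes at 20 weeks and 83 in the added comparison. The lowest diet counts were without replicate 1 of the 12-week group in each genotype, replicate 3 of WT chow and replicate 2 of AIM-KO 20 weeks HFD. For WT at 20 weeks a fit of the groups compared alone called 1369.

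Cyp26a1 on HFD, Cyp26b1 and Rarb lie near the dim end, where the pseudocount understates a change. Multiplied by 4, it gave -2.43 for Cyp26a1 at 12 weeks in WT.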
